A study of Mus musculus with 6 samples.

Results

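The genes described here encode the proteins of the mitochondrial ribosome. They were picked by name alone, as the protein-coding genes whose symbol begins with Mrpl or Mrps followed by a number. The name rule used no measured value, but the list was chosen with earlier results of these data known. The rule found 78 genes among the 54532 listed, each with a single entry. Of these, 76 had a mean of at least 1 FPKM (reads scaled to gene length and to the reads of the library) and were tested, and 2 did not.

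Mitochondria keep their own ribosome, which descends from that of a bacterial ancestor and translates only the few messages of the mitochondrial genome, all of them for subunits of the respiratory chain and ATP synthase. Its RNAs come from the mitochondrial genome, while every protein of it is encoded in the nucleus, made in the cytosol and imported. Some of these proteins have a counterpart in bacteria, and the others were added in the mitochondrial lineage. Symbols do not always give the place in the particle: the products of Mrps30 and Mrps18a sit in the large subunit, and that of Mrps36 is known as a component of the alpha-ketoglutarate dehydrogenase complex. Placed by role, the list held 26 small-subunit genes, 51 large-subunit genes and Mrps36.

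RNA came from bone-marrow-derived macrophages of the C57BL/6 strain, cultured phagocytes that arise from marrow precursors. Cells of the siCXCR4 group (3 libraries) carried an siRNA against Cxcr4, and those of the siNC group (labelled as 3 samples) a negative-control siRNA. Both groups were exposed to lipopolysaccharide (LPS, which stimulates macrophages) at 100 ng/ml for 12 hours, so no library shows cells without LPS. The labels name neither animals nor cultures, so replicate spread may be technical, and the p-values speak only of it; the table labelled siNC replicate 3 held the same read count as siNC replicate 2 in all 19072 genes with reads, so this pair was counted as 1 sample, which left 2 siNC libraries.

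Libraries held 18890751 to 21780840 reads in genes. Cxcr4, the siRNA target, had 31.1, 36.2 and 32.7 FPKM in siCXCR4, against 41.3 and 42.1 FPKM in siNC, so its level was lower in every siCXCR4 library but far from 0. Its log2 fold change of -0.32 (SE 0.0704) gave an adjusted p of 0.457 by limma, and the exact two-sided permutation test gave p = 0.2. With 3 libraries against 2 the permutation test cannot reach 0.05. All 9 macrophage markers were measured, summing to 4155 to 4520 FPKM in siCXCR4 and 4292 to 4531 FPKM in siNC libraries. Summed markers of T or NK cells, B cells, fibroblasts, dendritic cells and erythroid or mast cells were at most 1.04 FPKM in any library. The 6 neutrophil markers summed to 34.6 to 42.6 FPKM in siCXCR4 and 37.0 to 38.0 FPKM in siNC libraries, most of it from Ngp.

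Most mitochondrial ribosomal protein genes had slightly lower values in siCXCR4 macrophages than in siNC macrophages, and none passed the test. Of the 76 measured genes, 0 had an adjusted p under 0.05 by limma, as did 0.0% of all 9943 genes, and the smallest adjusted p of a member was 0.488. edgeR on whole reads called 0 members, where it called 0.133% of 12794 genes, and DESeq2 called 0, where it called 0.315% of 9525 genes. With no adjustment, 8 members lay lower in siCXCR4 at p under 0.05 by limma, beside 3.54% of all genes, and 2 lay higher, beside 5.8%. edgeR gave 9 lower and 0 higher, beside 5.27% and 4.46% of all genes.

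By sign, 56 of the 76 members had a log2 fold change below 0 in limma, as did 43.6% of all genes, and 58 of 77 did in edgeR, as did 51.9% of all genes. The median over the members was -0.05, beside 0.01 over all genes, as siCXCR4 minus siNC in log2(FPKM + 1). The list's median level had a pooled SD between replicate libraries of 0.0588, about as large as the distance of the members' median from that of all genes, -0.07. In 18 members every siCXCR4 value lay below both siNC values, which held for 9.92% of all genes, and in 6 members every siCXCR4 value lay above both, which held for 17.9% of all genes. Genes do not vary independently over 5 libraries, so these shares are a description. Of the read total behind each library's FPKM, 2.80% and 2.15% lay outside the listed genes in siNC replicates 1 and 2. In siCXCR4 replicates 1, 2 and 3 it was 0.00033%, 0.31% and 1.37%. This scaling shifts the limma fold changes of all genes upward, so the limma shares of all genes carry it. Scaled to reads in genes, the members' median was -0.075 and 58 of them lay below 0. The 95% interval of a member, not adjusted for the number of genes, had a median half-width of 0.18. Smaller differences were not detectable here for most members. With the adjustment larger ones were not called either, such as -0.38 in Mrps28 (limma adjusted p = 0.512).

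**Figure D1:**
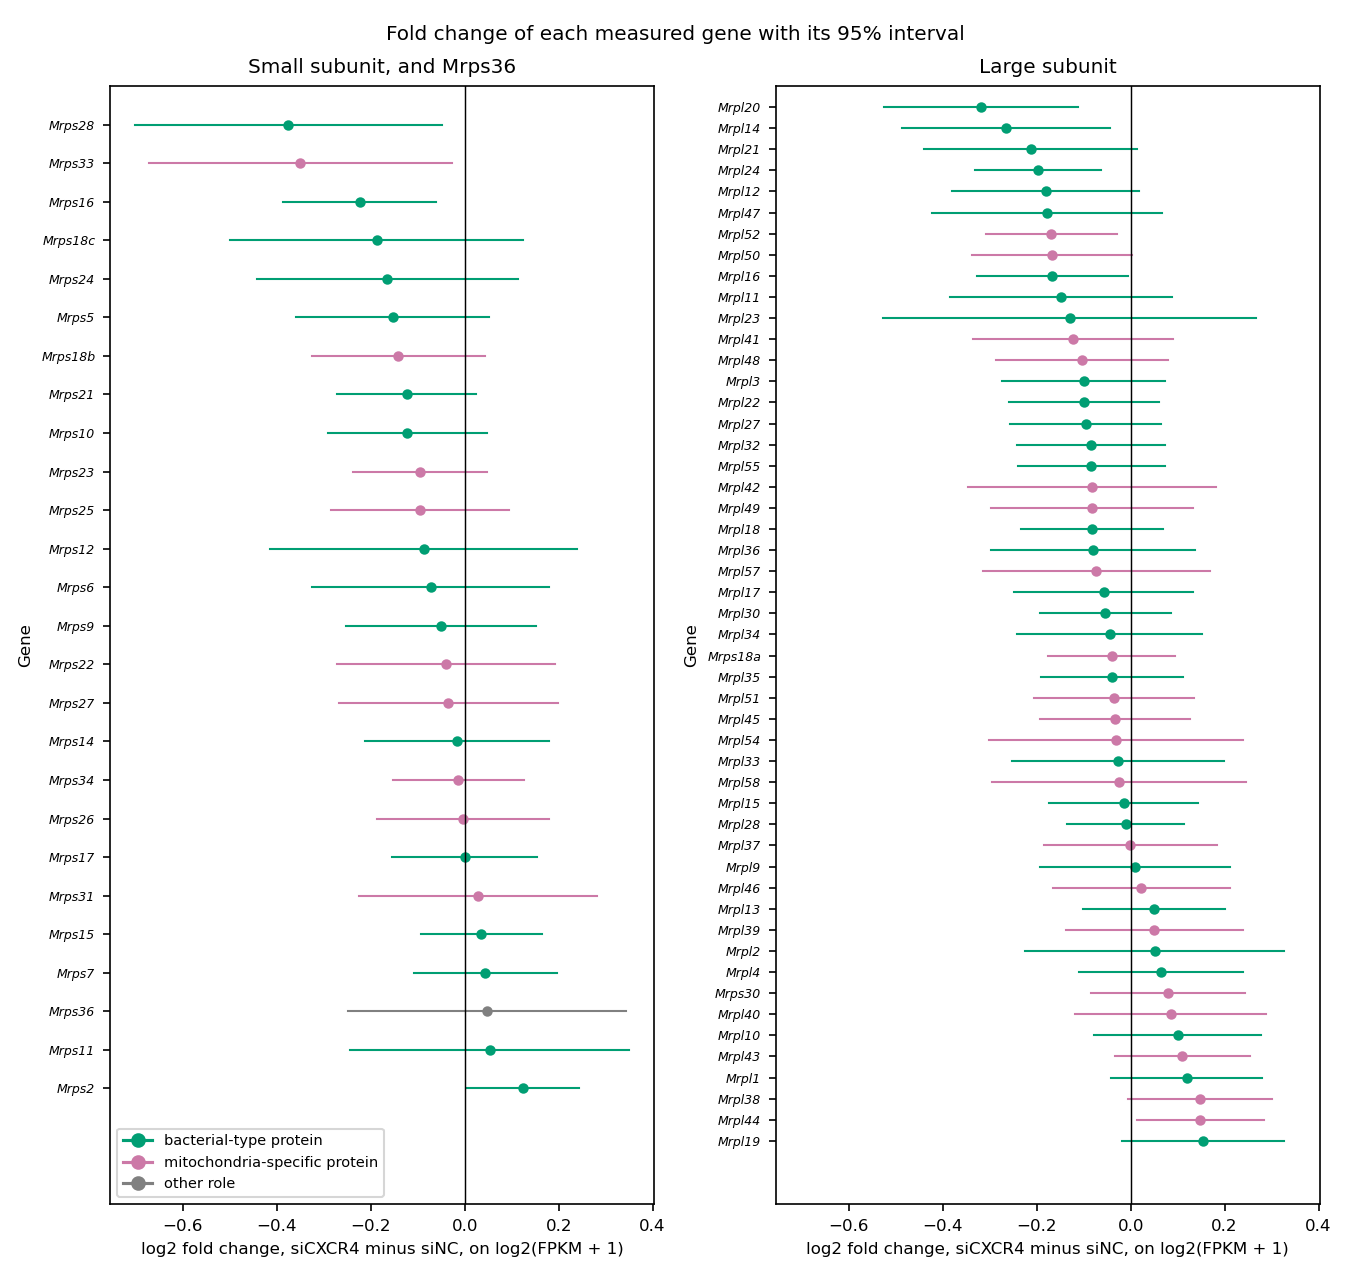
Log2 fold change (points) and its 95% interval by limma (lines) for each of the 76 measured genes, as siCXCR4 minus siNC in log2(FPKM + 1), with the small subunit and Mrps36 in the left panel and the large subunit in the right. Colours mark bacterial-type, mitochondria-specific and other proteins; 56 of the 76 points lie left of 0.

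Of the 8 members lower at an unadjusted p under 0.05, 6 were bacterial-type proteins, as were 46 of the 76 measured members. Mrpl20, a large-subunit protein whose bacterial counterpart is needed to assemble that subunit, had 9.16, 11.0 and 9.04 FPKM in siCXCR4, against 12.6 and 12.0 FPKM in siNC. The groups did not overlap, and siCXCR4 replicate 2 lay nearest to siNC. The fold change in log2 units was -0.32 (SE 0.0866), its 95% interval reached from -0.52 up to -0.11, and limma's adjusted p was 0.488. Mrpl24, another bacterial-type protein of the large subunit, had 11.6, 12.1 and 11.1 FPKM in siCXCR4, against 13.3 and 13.7 FPKM in siNC. Again every siCXCR4 value was below siNC, at a log2 fold change of -0.20 (SE 0.0560).

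Mrps16, a small-subunit protein whose loss in people impairs the respiratory chain, had 2.65, 2.64 and 2.45 FPKM in siCXCR4, against 3.31 and 3.05 FPKM in siNC. It rested on only 135 to 210 reads per library, and its log2 fold change of -0.22 understates the change of so low a gene, which edgeR put at -0.32. Mrps28, also of the small subunit, had 9.44, 8.89 and 6.67 FPKM in siCXCR4, against 11.1 and 10.9 FPKM in siNC. Its lowest value was that of siCXCR4 replicate 3, and its log2 fold change of -0.38 (SE 0.134) became -0.24 without that library. Mrps33, a mitochondria-specific small-subunit protein, had 4.79, 6.62 and 5.17 FPKM in siCXCR4, against 7.91 and 6.66 FPKM in siNC. Here siCXCR4 replicate 2 and siNC replicate 2 were almost level, and the log2 fold change was -0.35 (SE 0.132). Mrps28, Mrps33 and Mrpl20 were the 3 members beyond 0.3 in size on this scale.

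Mrpl14, a bacterial-type protein on the face of the large subunit that meets the small one, had 11.6, 14.2 and 13.0 FPKM in siCXCR4, against 16.6 and 14.9 FPKM in siNC. Mrpl52, a mitochondria-specific protein and one of the most abundant messages of the list, had 29.6, 32.0 and 29.0 FPKM in siCXCR4, against 34.7 and 33.4 FPKM in siNC. Both separated the groups, with a log2 fold change of -0.27 (SE 0.0923) for Mrpl14 and -0.17 (SE 0.0585) for Mrpl52. Adjusted p by limma ran from 0.488 to 0.515 over these 7 genes.

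Fewer members lay above 0. Mrpl44, a large-subunit protein related to the RNA-cutting enzyme RNase III, had 18.7, 20.4 and 19.7 FPKM in siCXCR4, against 17.9 and 17.2 FPKM in siNC. Mrps2, a bacterial-type protein of the small subunit, had 12.6, 12.4 and 12.0 FPKM in siCXCR4, against 11.1 and 11.3 FPKM in siNC. Neither overlapped between the groups: Mrpl44 differed by 0.15 (SE 0.0565) and Mrps2 by 0.12 (SE 0.0499) in log2 units, at limma adjusted p of 0.512 and 0.526. Mrpl38, a mitochondria-specific protein, had 10.4, 10.1 and 9.71 FPKM in siCXCR4, against 9.51 and 8.51 FPKM in siNC. Mrpl19, of the bacterial type, separated the groups as well, at a log2 fold change of 0.15. Mrpl1, also of that type, had 5.98, 6.31 and 5.86 FPKM in siCXCR4, against 5.81 and 5.17 FPKM in siNC. Its log2 fold change of 0.12 was 0.19 without siNC replicate 1 and 0.048 without siNC replicate 2. The groups of Mrpl43 overlapped narrowly, at 25.5, 26.5 and 23.8 FPKM in siCXCR4, against 23.8 and 22.9 FPKM in siNC.

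**Figure D2:**
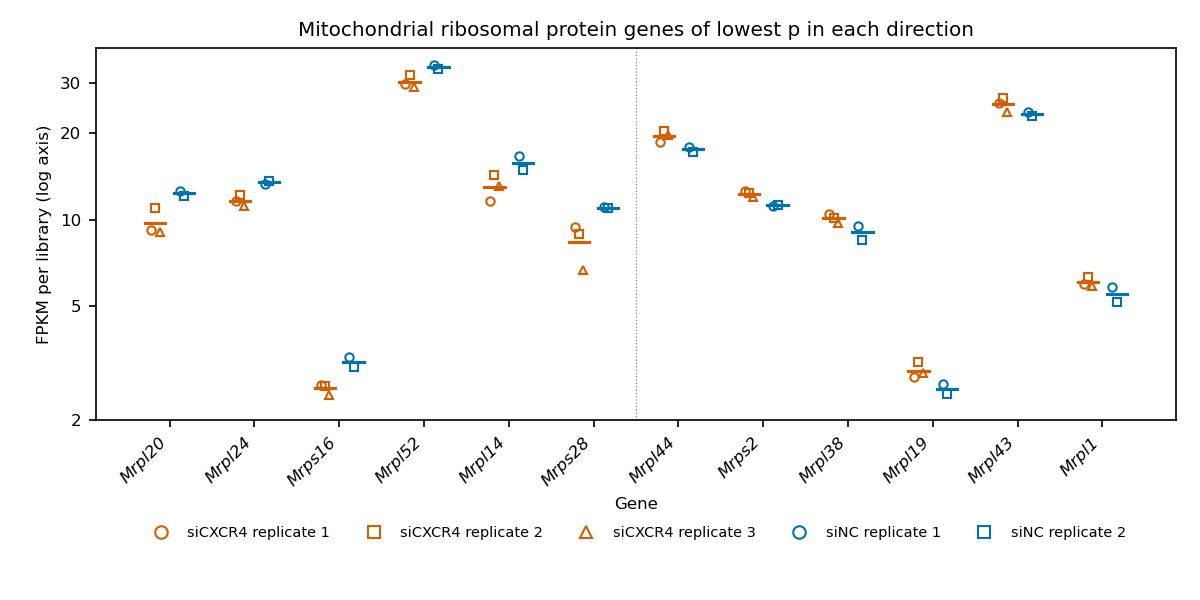
FPKM in each library (points, log axis) and group mean (bars) for the 6 members of lowest p below 0, left of the dotted line, and the 6 of lowest p above 0, right of it, with siCXCR4 left of siNC for each gene. For the left genes each siCXCR4 value lies below both siNC values; those of Mrps28 spread from 6.67 to 9.44 FPKM.

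In GRCm38 coordinates Mrpl20 lies on chromosome 4 at 155802878 to 155809975, Mrpl24 on chromosome 3 at 87919506 to 87923672 and Mrpl14 on chromosome 17 at 45686322 to 45698495, all on the plus strand. Mrps28 lies on chromosome 3 at 8802146 to 8923918, Mrps33 on chromosome 6 at 39801804 to 39810988 and Mrps16 on chromosome 14 at 20389304 to 20393634, all on the minus strand. On the plus strand, Mrpl44 lies on chromosome 1 at 79776018 to 79781445 and Mrps2 on chromosome 2 at 28468066 to 28471178.

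Promoter windows of 4 members are shown because NRF1, YY1 and factors of the ETS family such as GABP are known to act on many nuclear genes for mitochondrial proteins. RefSeq windows on GRCm38.p6, from 250 bases before to 50 after a start, were found for 69 of the 78 members, 75 windows in all. Mrpl13, Mrpl15, Mrpl19, Mrpl38, Mrpl4, Mrpl54, Mrps28, Mrps34 and Mrps35 had none. Both strands were searched for the NRF1 letters (GCGCA, any base, GCGC), the ETS letters CCGGAAG, the YY1 letters AAGATGGCG and the TATA letters TATAAA. The windows are those of the NRF1, ETS and YY1 matches of lowest p below 0, in this order, and of the NRF1 match of lowest p above 0. They read 5′ to 3′ on the gene's strand with matched letters in capitals, and lie at chr17:45686099-45686398 (plus), chr14:20393441-20393740 (minus), chr11:5707652-5707951 (minus) and chr1:79775768-79776067 (plus).
Mrpl14: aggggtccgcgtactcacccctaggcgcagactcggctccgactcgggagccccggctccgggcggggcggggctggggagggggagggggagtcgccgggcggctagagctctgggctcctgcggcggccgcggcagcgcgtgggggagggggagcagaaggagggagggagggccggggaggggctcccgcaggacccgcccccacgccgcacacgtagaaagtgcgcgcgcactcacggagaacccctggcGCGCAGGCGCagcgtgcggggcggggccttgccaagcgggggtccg
Mrps16: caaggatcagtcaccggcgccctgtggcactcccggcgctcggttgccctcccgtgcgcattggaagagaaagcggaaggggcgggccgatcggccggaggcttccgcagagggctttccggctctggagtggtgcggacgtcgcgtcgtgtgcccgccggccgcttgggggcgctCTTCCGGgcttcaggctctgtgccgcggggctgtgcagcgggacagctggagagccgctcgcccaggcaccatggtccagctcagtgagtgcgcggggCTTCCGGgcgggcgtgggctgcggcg
Mrps24: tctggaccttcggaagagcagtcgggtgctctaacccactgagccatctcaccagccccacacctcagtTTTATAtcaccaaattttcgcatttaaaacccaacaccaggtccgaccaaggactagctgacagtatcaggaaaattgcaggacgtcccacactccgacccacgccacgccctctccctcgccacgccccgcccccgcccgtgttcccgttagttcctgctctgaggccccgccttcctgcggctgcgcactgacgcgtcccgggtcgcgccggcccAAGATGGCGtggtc
Mrpl44: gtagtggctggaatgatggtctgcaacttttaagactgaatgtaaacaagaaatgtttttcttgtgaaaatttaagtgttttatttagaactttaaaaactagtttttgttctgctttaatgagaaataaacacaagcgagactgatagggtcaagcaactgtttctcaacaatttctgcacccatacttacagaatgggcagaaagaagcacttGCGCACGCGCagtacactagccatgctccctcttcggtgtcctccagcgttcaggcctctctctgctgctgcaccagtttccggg

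The NRF1 letters of Mrpl14 and the YY1 letters of Mrps24 lie just after the start, at bases 255 to 264 and 287 to 295 of the window, and those of Mrpl44 before it, at 216 to 225. The printed Mrps16 window holds the ETS letters on the other strand on both sides of its start, at 177 to 183 and 275 to 281. A further Mrps16 window, at chr14:20393585-20393884 (minus), belongs to the start at the listed gene end of 20393634. It held none of the letters searched. Mrps24 also holds the TATA letters on the other strand, at 70 to 75. This gene is listed at 5703983 to 5715680 on the minus strand, so the RefSeq start of its window lies inside the listed gene and not at its end. Among member windows 17.3% held the NRF1 letters, against 10.9% of the windows of all genes tested and 4.60% of all windows. The ETS letters stood in 34.7%, against 19.8% and 8.86%, the YY1 letters in 10.7%, against 3.54% and 1.40%, and the TATA letters in 6.67%, against 6.83% and 13.6%. Of the 25 measured members with ETS letters 24 had a log2 fold change below 0 (median -0.09), and of the 43 without them 28 did (median -0.05), which is 1 of 4 such splits and was not tested. The 13 members with NRF1 letters had a median of -0.05, against -0.08 in the 55 without. Mrps24, a small-subunit protein, had 6.01, 7.92 and 6.20 FPKM in siCXCR4, against 7.17 and 8.03 FPKM in siNC, with overlapping groups. A match of letters describes the sequence and is not a binding site.

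By subunit, 20 of 25 measured small-subunit genes lay below 0 (median -0.07), and 36 of 50 large-subunit genes did (median -0.05). Every siCXCR4 value was below both siNC values in 8 of the small-subunit and 10 of the large-subunit genes, beside 9.92% of all genes. All siCXCR4 values were above both in 1 small-subunit and 5 large-subunit genes, beside 17.9% of all genes. Summed FPKM of the small over the large subunit was 0.312, 0.321 and 0.317 in siCXCR4, against 0.321 and 0.330 in siNC, with overlapping groups. By descent, 35 of 46 bacterial-type genes lay below 0 (median -0.08), and 21 of 29 mitochondria-specific genes did (median -0.03). The bacterial-type median was -0.02 without siCXCR4 replicate 3.

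Members with roles of their own followed no common course. Mrpl12, part of the stalk that recruits translation factors, had 10.2, 11.0 and 8.96 FPKM in siCXCR4, against 11.6 and 11.4 FPKM in siNC, with groups apart and a log2 fold change of -0.18 (SE 0.0836, limma adjusted p = 0.557), which was -0.11 without siCXCR4 replicate 3. Of the Mrps18 paralogs, Mrps18c, which takes the bacterial position in the small subunit, had 6.14, 8.58 and 6.50 FPKM in siCXCR4, against 8.13 and 8.11 FPKM in siNC. The highest of these values was that of siCXCR4 replicate 2, so the groups overlapped, and its log2 fold change of -0.19 was -0.32 without that library and -0.11 without siCXCR4 replicate 1. The groups also overlapped for Mrps18b of the small subunit, at a log2 fold change of -0.14 (SE 0.0772), and for Mrps18a of the large subunit, at -0.04 (SE 0.0564). Both depended on the siNC libraries: without siNC replicate 1 Mrps18b was at -0.22 and Mrps18a at -0.0012, and without siNC replicate 2 they were at -0.064 and -0.08. Mrps30, of the large subunit despite its symbol, had 2.60, 2.80 and 2.51 FPKM in siCXCR4, against 2.41 and 2.47 FPKM in siNC, with all siCXCR4 values above. Mrps36, of the dehydrogenase complex, had 8.22, 7.61 and 6.11 FPKM in siCXCR4, against 7.54 and 6.49 FPKM in siNC, and its groups overlapped.

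Mean levels over the 76 members ran from 1.11 to 39.98 FPKM with a median of 6.91, on 59 to 1009 reads per gene and library. The most abundant was Mrpl27, whose bacterial counterpart lies near the site of peptide bond formation, at 39.6, 40.4 and 36.6 FPKM in siCXCR4, against 43.8 and 39.5 FPKM in siNC. Mrpl52, Mrpl54, Mrpl43 and Mrpl2 followed it, all of the large subunit, with means over the 5 libraries of 31.8, 26.5, 24.5 and 20.4 FPKM. Mrpl54 and Mrpl2 overlapped between the groups, and their directions turned when single libraries were left out. The least abundant measured members were Mrps25, Mrpl33 and Mrpl48, at means of 1.11, 1.27 and 1.43 FPKM. Their listed lengths of 6576, 7326 and 8152 bases were long. The listed length equalled the union of all annotated exons in 73 of 78 members, so these levels are per base of all annotated exons and not of 1 transcript.

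Mrps35 and Mrpl53 were not tested. Mrps35, a mitochondria-specific small-subunit protein, had 144 to 189 reads per library and a mean of 0.956 FPKM, just under the limit, on a listed length of 8631 bases. Mrpl53, of the large subunit, was listed at 0 in all libraries. In the GENCODE annotation of GRCm38, 88.0% of its exon bases are also exon of Gm42688 on the same strand, a gene with a mean of 13.4 reads. In all, 33 of 78 members shared exon bases with another gene, and 10 shared over 20%. These 10 were Mrpl53, Mrps34 (77.8%), Mrps25 (69.8%), Mrpl19 (36.0%), Mrpl43 (33.4%), Mrps18b (30.5%), Mrpl24 (26.3%), Mrps27 (24.2%), Mrpl47 (24.2%) and Mrps18c (23.2%). No source used here says how such reads were counted or whether strand was used. Among the 44 measured members with no shared base 34 lay below 0, with a median of -0.05.

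Single libraries stood apart across the members. In siCXCR4 replicate 3, 41 of the 76 members (53.9%) had their lowest value of the 5 libraries, where 21.1% of all genes did. In siNC replicate 1, 28 members (36.8%) had their highest value, where 19.1% of all genes did. The median deviation of the members from the mean of the 5 libraries was 0.0026, 0.032 and -0.10 in siCXCR4 replicates 1, 2 and 3, against 0.043 and 0.013 in siNC replicates 1 and 2. So siCXCR4 replicate 2 lay between the siNC libraries, replicate 1 just under them and replicate 3 apart. The nearness of siCXCR4 replicate 2 to siNC was not particular to the members. Over all genes with enough reads, its mean chi-square of read counts per gene was 4.50 and 5.88 to siNC replicates 1 and 2. It was 6.87 and 8.66 to siCXCR4 replicates 1 and 3. Of all reads in genes the members took 0.137%, 0.141% and 0.130% in siCXCR4, against 0.146% and 0.141% in siNC. Without siCXCR4 replicate 3, 46 of 76 members lay below 0 with a median of -0.02. Without siCXCR4 replicate 2, 54 did with a median of -0.08, and 15 lay lower at an unadjusted p under 0.05 by limma, beside 6.18% of all genes in that fit. edgeR without that library, tried after the data were seen, called 2 members, Mrpl20 and Mrps33, both lower, where it called 2.45% of 12750 genes.

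The coefficient of variation over the 5 libraries had a median of 8.11% in the members, beside 6.77% in all genes tested. Mrpl23, at 21.1%, Mrps33 and Mrps28 varied most, and Mrpl28, Mrps34 and Mrpl15 least, at 2.45%, 2.69% and 2.79%; Mrpl23 and the least variable genes are named because of these values. Mrpl28, a bacterial-type protein of the large subunit, had 11.0, 11.3 and 11.1 FPKM in siCXCR4, against 10.9 and 11.6 FPKM in siNC. In bulk RNA, fewer cells of a type and less RNA per cell cannot be told apart.

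The lowest library was siCXCR4 replicate 3 also in the median of cytosolic ribosomal protein genes, of nuclear respiratory chain genes and of the mitochondrial genome. Among 76 measured cytosolic ribosomal protein genes 73 lay below 0 (median -0.16), 16 of them at an unadjusted p under 0.05 by limma. Among 54 nuclear genes of the respiratory chain and ATP synthase 41 did (median -0.10), 3 of them at that p, and of 12 genes of the mitochondrial genome 11 did (median -0.10). Of all genes tested 43.6% lay below 0, and 3.54% lay lower at that p. No gene of these lists had an adjusted p under 0.05 by limma. By edgeR 1 cytosolic ribosomal protein gene, Rps28, did, where edgeR called 0.133% of 12794 genes. Rps27, of the same list, had 14.2, 15.3 and 11.9 FPKM in siCXCR4, against 52.7 and 31.6 FPKM in siNC, with groups apart. Its log2 fold change was -1.50 (SE 0.244, limma adjusted p = 0.438), and its siNC values lay far from each other. Uqcrb, a subunit of respiratory complex III, had a mean of 17.1 ± 2.14 FPKM in siCXCR4 (SD, n = 3), against 24.2 ± 2.37 FPKM in siNC (SD, n = 2), with groups apart. mt-Co1, a cytochrome c oxidase subunit that the mitochondrial ribosome makes, had 3020, 3394 and 2881 FPKM in siCXCR4, against 3319 and 3333 FPKM in siNC, so that siCXCR4 replicate 2 lay above both siNC libraries. mt-Nd3, a complex I subunit, had 11.6, 10.7 and 12.0 FPKM in siCXCR4, against 8.47 and 9.18 FPKM in siNC, with every siCXCR4 value above siNC. In cytosolic ribosomal protein genes the median deviation was -0.07, 0.07 and -0.19 in siCXCR4 replicates 1, 2 and 3, against 0.14 and 0.04 in siNC replicates 1 and 2, a wider spread than among the mitochondrial ones.

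**Figure D3:**
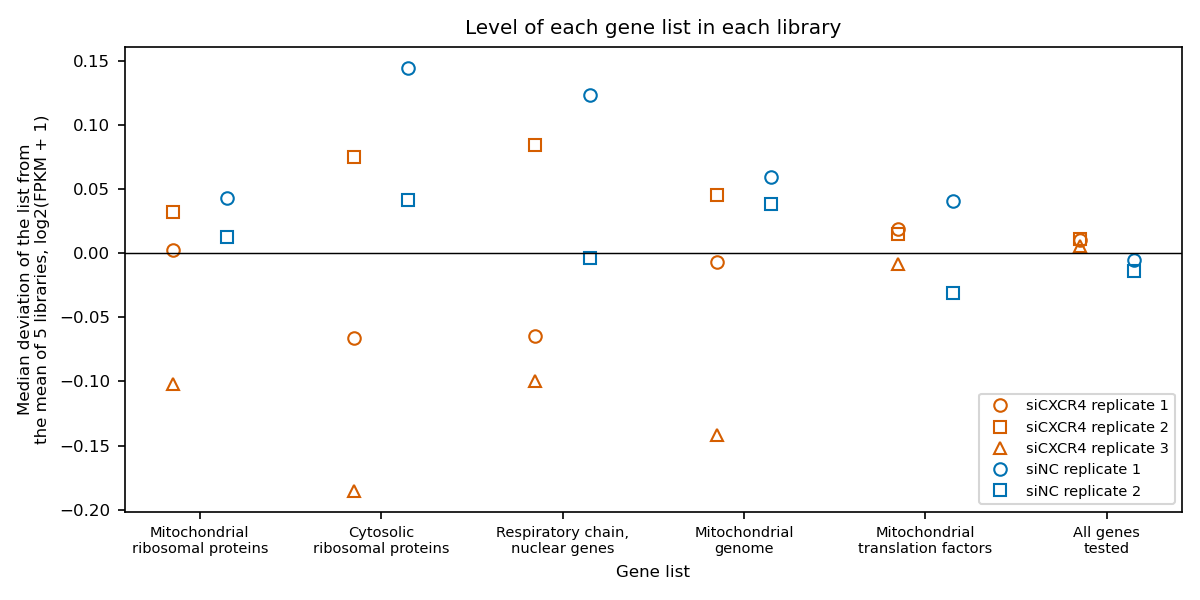
Median deviation of each gene list from its mean over the 5 libraries, on the log2(FPKM + 1) scale, in each siCXCR4 and siNC library (points). In the mitochondrial ribosomal proteins siCXCR4 replicate 3 lies at -0.10, and the other libraries lie from 0.0026 to 0.043.

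Other genes that serve the mitochondrial ribosome were taken from lists. Of 5 ribosomal proteins without an Mrp symbol 3 lay below 0, and Chchd1, of the small subunit, had 12.4, 12.7 and 9.82 FPKM in siCXCR4, against 15.2 and 12.8 FPKM in siNC. Among translation factors 5 of 14 lay below 0 (median 0.01). Tufm, the elongation factor that brings tRNA to the ribosome, had 21.8, 22.0 and 21.4 FPKM in siCXCR4, against 22.4 and 20.3 FPKM in siNC, with overlapping groups. Of 20 measured assembly factors 12 lay below 0 (median -0.01). Afg3l2, a subunit of the inner-membrane protease that matures the Mrpl32 protein in mice, had 27.6, 28.3 and 28.4 FPKM in siCXCR4, against 25.3 and 25.9 FPKM in siNC. The groups did not overlap, with a log2 fold change of 0.13 (SE 0.0463, limma adjusted p = 0.509), and Mrpl32 itself had -0.08 (SE 0.0659). Of 14 mitochondrial tRNA synthetases 10 lay below 0 (median -0.04), and of 8 transcription factors of mitochondrial genes 3 did. None of the genes in these lists had an adjusted p under 0.05 by limma or edgeR.

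The shortest genes most often lay below 0, in the list and in all genes, with no steady order above 1200 bases. Of 15 members with a listed length under 1200 bases 14 lay below 0 (median -0.10), and of all genes of that length 62.6% did (median -0.07). From 1200 to under 2500 bases 15 of 24 members did, and 50.6% of all genes, and from there to under 5000 bases 17 of 24 members, and 36.1% of all genes. At 5000 bases or more 10 of 13 members did (median -0.05), and 41.8% of all genes (median 0.02). Spearman's rho of log2 fold change with length was 0.22 across the 76 members and 0.081 across all genes, which share their libraries and are not independent replicates. Across the members it was 0.087 without siNC replicate 1, 0.13 without siCXCR4 replicate 3 and 0.30 without siNC replicate 2. Deviations of the members from the mean of the libraries had a rho with length of 0.017, -0.016 and 0.32 in siCXCR4 replicates 1, 2 and 3, against -0.31 and -0.041 in siNC replicates 1 and 2. The part of length in the fold changes was not tested.

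**Figure D4:**
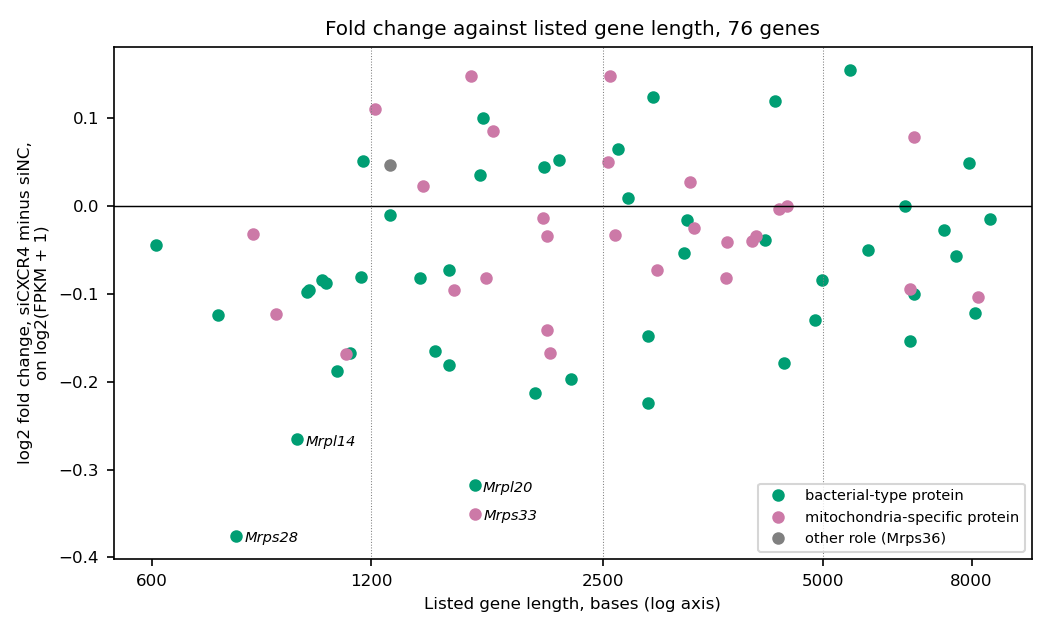
Log2 fold change of each of the 76 measured members (points), as siCXCR4 minus siNC in log2(FPKM + 1), against listed gene length in bases (log axis), with dotted lines at 1200, 2500 and 5000 bases. Of the 15 genes under 1200 bases 14 lie below 0.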

How the data were processed

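Per the labels' protocols, total RNA was extracted with Trizol and made into Illumina libraries. The authors deposited 5 tables of normalized values, read here as FPKM (which RPKM would equal) because value times listed length was a multiple of a fixed step in each library, within 0.05 reads. The siNC replicate 3 table holds read counts, as deposited by the authors. No source used here names the aligner or counter. The submitters' processing notes name mm9, yet 98.3% of shared genes had their GRCm38 position, so GRCm38 coordinates are given.

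limma 3.58.1 (R 4.3.3; trend, robust) compared siCXCR4 with siNC on log2(FPKM + 1) for genes averaging 1 FPKM or more; tests were two-sided and p-values were adjusted by Benjamini-Hochberg over all genes. For 102 symbols with several entries, only the entry of highest mean was used. Whole reads worked back from FPKM went into edgeR 4.0.16 (TMM, quasi-likelihood), DESeq2 1.42.0 and limma-voom. The limma and edgeR fits were run on simulated data with genes drawn independently and planted changes larger than those of the members. That run does not show their power for changes of the members' size. Alternatives were other scalings, filters, pseudocounts, variance models, library weights, the copy as a replicate, a replicate block and each library left out; edgeR with each library left out was added after the data were seen.

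Named are Cxcr4, members of lowest p or largest change in each direction, the most and least abundant, those not tested, those with a role of their own, and some of the lowest-p or most abundant genes of other lists. The members and lists were chosen with earlier results of these data known. Reads carry no molecular identifiers, so read numbers reflect counting error only.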

Additional observations from a re-analysis of the deposited data

How the results depend on the processing

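No member passed an adjusted p of 0.05 in limma or under any alternative except edgeR without siCXCR4 replicate 2 (0 to 2 members over the libraries left out). Over all genes the count was 17 by edgeR, 30 by DESeq2, 5 by limma-voom and 6 with the copy as a siNC replicate; it was 0 to 2 by limma and 0 to 312 by edgeR with 1 library left out (3 without siCXCR4 replicate 3, 5 and 20 without siNC replicates 1 and 2). Members below 0 numbered 46 to 60 of 76 or 77, except with a mean of at least 5 FPKM, where 48 were measured (33 below 0). The median stayed below 0 in all these fits, from -0.11 in edgeR without siCXCR4 replicate 2 to -0.02 without siCXCR4 replicate 3. With a replicate block the median was -0.02 and 46 lay below 0; siCXCR4 replicate 3 has no partner in siNC, so that fit gave the fold changes of leaving it out. Whether replicate numbers pair the libraries could not be told. Equally numbered libraries had correlations of deviations of -0.04 and -0.11. With 2 siNC libraries the deviations mirror each other, so each correlation only returns with the other sign. Mrpl54 turned to 0.025 with the copy and 0.026 with the block, and ran from -0.20 to 0.14 with 1 library left out. Mrpl33 turned to 0.0024 and 0.019, and ran from -0.12 to 0.062. With 1 library left out Mrps36 ran from -0.048 to 0.16 and Mrpl2 from -0.041 to 0.16. The cause of these changes was not tested.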

Other observations

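Of the 78 members, 19 start within 1000 bases of a protein-coding gene on the other strand that runs away from them. In the 11 pairs with both genes measured, 10 members and 5 of the neighbours had a log2 fold change below 0, with medians of -0.08 and 0.01. Mrpl32 lies beside Psma2, a proteasome subunit, with starts 75 bases apart and log2 fold changes of -0.08 and -0.10. Mrpl49 lies beside Fau, which encodes a cytosolic ribosomal protein as a fusion, with -0.08 and -0.18, and Mrps18c beside the helicase gene Helq with -0.19 and 0.01. Processed pseudogenes of this family were listed at low levels, with Mrpl23-ps1 at a mean of 1.10 FPKM and Mrpl48-ps at 0.568 FPKM over the 5 libraries.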
